A study of Mus musculus with 24 samples.

Results

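miR-375 and miR-342 are microRNAs (miRNAs) that are known from luminal breast epithelium and from breast cancers that carry the estrogen receptor (ER). They are 2 of the 510 miRNAs in the count table, taken by name (mir-375 and mir-342), and both were among the 237 that passed the filter on low counts. Small RNA was sequenced from mammary tissue of 24 mice of the FVB strain. Tumors came from MMTV-PyMT females with 1 copy of a transgene in which the mouse mammary tumor virus promoter drives polyoma middle T antigen in mammary epithelium. They were hyperplasia at week 6, adenoma/MIN (mammary intraepithelial neoplasia) at week 8, early carcinoma at week 10 and late carcinoma at week 12. Normal glands came from FVB females of the same ages without the transgene. Each of the 8 groups had 3 libraries. Total counts were 1626022 to 3931375 in normal libraries and 1032241 to 2213972 in tumor libraries, and each tissue had 6 libraries on each of 2 sequencing lanes.

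A miRNA is cut from a hairpin precursor as a duplex, and either arm can be loaded into Argonaute. The loaded arm pairs with target mRNAs through its seed, bases 2 to 8 from its 5′ end, and lowers their stability or translation. miR-375 is best known for its abundance in pancreatic islets, where it limits insulin secretion, and it is also abundant in ER-positive breast cancer cells. miR-342 lies within Evl, a gene for an actin regulator of the Ena/VASP family, and tends to be high in ER-positive breast cancers and also in lymphoid cells. The study describes end-stage tumors of this model as negative for the estrogen and progesterone receptors. It also reports that mRNA of the estrogen receptor ERα was strongly lowered in PyMT mice along its time points. No mRNA was analysed here, so receptor levels were not examined and that report was not checked.

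The mature sequences below show in capitals the seeds of both arms of miR-342 and of the 5p arm of miR-375. They are from RefSeq (GRCm38.p6), written 5′ to 3′. The deposited counts are per hairpin name, so that reads from the arms of a hairpin were not told apart. The other arm, miR-375-3p, is usually reported as the dominant one and is named only. The seed shown is thus that of the 5p arm and not the main seed of miR-375.
miR-375-5p: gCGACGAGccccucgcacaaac
miR-342-5p: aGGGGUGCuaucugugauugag
miR-342-3p: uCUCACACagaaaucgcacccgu
The 3 seeds differ from each other, and each was found in 0 other mature sequences of the 1738 in the RefSeq table. The seed of miR-375-3p was not part of this count. The hairpins below show in capitals where these 3 mature sequences sit in the precursor, with the 3p arm of miR-375 not marked.
miR-375 hairpin: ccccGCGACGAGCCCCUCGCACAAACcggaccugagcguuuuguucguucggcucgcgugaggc
miR-342 hairpin: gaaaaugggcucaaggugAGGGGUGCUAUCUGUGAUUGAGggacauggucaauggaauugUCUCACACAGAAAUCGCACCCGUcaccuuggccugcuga
The miR-375 hairpin has 64 bases and a GC content of 67.2%, and that of miR-342 has 99 bases and 51.5%. In the mm9 build named in the library labels, the miR-375 hairpin matched chr1:74947232-74947295 on the minus strand, between genes. The nearest annotated genes were Ccdc108 at 1350 bases and Cryba2, a lens crystallin gene, at 7515 bases. The miR-342 hairpin matched chr12:109896830-109896928 on the plus strand, inside an intron of Evl (chr12:109792930-109926723, plus strand), and overlapped 0 exons.

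At each of the 4 weeks tumors over-expressed miR-375, on average 4.96-fold (log2 fold change 2.31, SE 0.22). miR-342 was over-expressed 1.64-fold on average (log2 fold change 0.71, SE 0.14), and its weekly difference passed the test without pairing at week 12 only, and at week 8 also with the replicate number as a block. Normalized counts are given as CPM, counts scaled to a common library size by the TMM method, which aligns libraries on the bulk of their miRNAs. In bulk tissue, more cells of a type cannot be told apart from more of a miRNA per cell. Tumor and normal libraries were compared at each week by the quasi-likelihood test of edgeR, at a threshold of 0.05 on p-values adjusted by the Benjamini-Hochberg method over the 237 miRNAs.

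At week 6, miR-375 had 22.2, 39.4 and 31.1 CPM in the 3 normal libraries and 121, 154 and 174 CPM in the 3 hyperplasia libraries. At week 8 the normal libraries had 27.5, 52.3 and 37.3 CPM and the adenoma/MIN libraries 164, 309 and 59.8 CPM. Every tumor library lay above every normal library at both weeks, but the third adenoma/MIN library was close to the highest normal one. At week 10 the normal libraries had 52.9, 45.8 and 41.2 CPM and the early carcinoma libraries 113, 248 and 212 CPM. At week 12 the normal libraries had 23.7, 17 and 34.5 CPM and the late carcinoma libraries 178, 152 and 179 CPM. The tissues did not overlap at these weeks either, and the late carcinomas were the most alike of the 4 tumor groups. Over the whole series, all 12 tumor libraries (59.8 to 309 CPM) lay above all 12 normal libraries (17 to 52.9 CPM). Such a complete separation was seen for 18.6% of the tested miRNAs.

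miR-342 had 176, 329 and 439.8 CPM in the normal libraries of week 6 and 515, 516 and 489.9 CPM in hyperplasia. At week 8 it had 232, 351 and 472 CPM in normal glands and 593, 596 and 621 CPM in adenoma/MIN. In both weeks every tumor library exceeded the normal ones and they lay close together, while the normal libraries were spread more than 2-fold. The normal libraries of week 10 had 275, 322 and 459 CPM and the early carcinoma libraries 642, 403 and 505 CPM. At week 12 the normal libraries had 221, 278 and 263 CPM and the late carcinoma libraries 493, 464 and 386 CPM. The tissues overlapped at week 10 and were separate at week 12. Tumor libraries all above normal libraries were seen for 34.2%, 32.1%, 36.3% and 33.3% of the tested miRNAs at weeks 6, 8, 10 and 12, so that miR-342 shared its separation at 3 of 4 weeks with many other miRNAs.

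**Figure D1:**
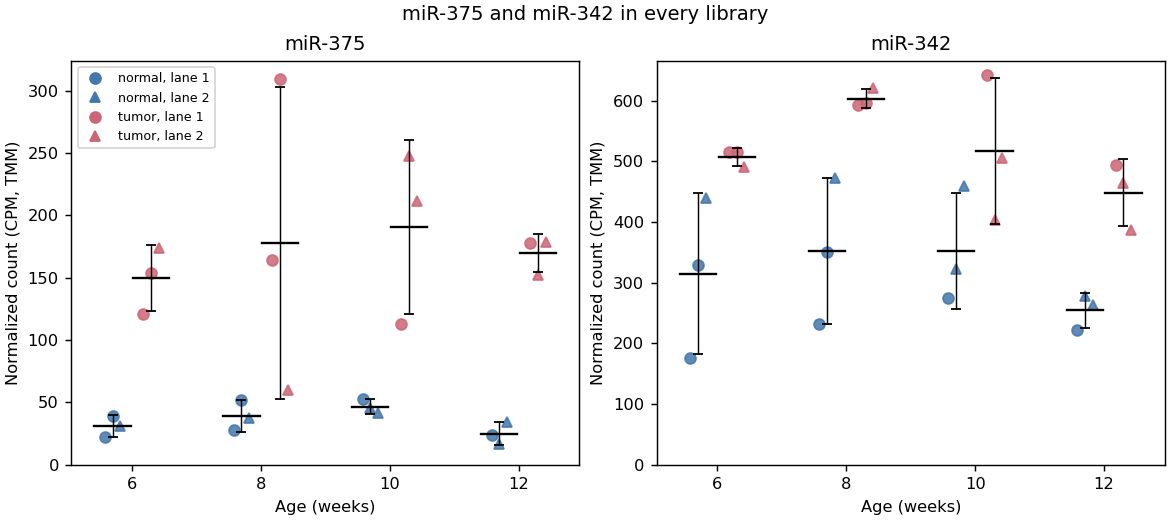
Normalized count (CPM, TMM) of miR-375 and miR-342 against age in weeks, 1 point per library, normal in blue and tumor in red, circles for lane 1 and triangles for lane 2. Horizontal lines are group means and bars 1 SD (n = 3). The 12 tumor libraries of miR-375 sit between 59.8 and 309 CPM, above the 12 normal libraries, while the tissues of miR-342 overlap at week 10.

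The mean level of miR-375 was 30.9 ± 8.62, 39.0 ± 12.5, 46.6 ± 5.87 and 25 ± 8.84 CPM (SD, n = 3) in normal glands at weeks 6, 8, 10 and 12. In tumors it was 149.7 ± 26.6, 178 ± 125, 191 ± 70.0 and 169.8 ± 15.1 CPM. The log2 fold change was 2.27 (SE 0.30, adjusted p = 0.00135, edgeR) at week 6, 2.16 (SE 0.57, adjusted p = 0.0231) at week 8, 2.01 (SE 0.32, adjusted p = 0.00200) at week 10 and 2.73 (SE 0.34, adjusted p = 7.73e-04) at week 12. Among all tested miRNAs, 29.1%, 21.9%, 32.9% and 29.1% were called higher at these weeks, and 18.6% were called higher at all 4, as miR-375 was. Its fold change ranked 10, 17, 21 and 9 from the highest of 237, while the median over all tested miRNAs was -0.12, -0.09, -0.15 and -0.19. The week 8 call rested on few libraries. Without the first normal, the third normal or the second tumor library of that week the adjusted p (edgeR) was 0.0713, 0.0793 and 0.0756, and without that tumor library the log2 fold change was 1.52.

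The mean level of miR-342 was 315 ± 133, 352 ± 119.7, 352 ± 95.4 and 254 ± 29.4 CPM (SD, n = 3) in normal glands at weeks 6, 8, 10 and 12, and 507 ± 14.7, 603 ± 15.4, 517 ± 119.9 and 448 ± 55.3 CPM in tumors. Its log2 fold change was 0.69 (95% interval -0.07 to 1.44, adjusted p = 0.102, edgeR) at week 6, 0.76 (0.11 to 1.41, adjusted p = 0.0662) at week 8, 0.55 (-0.05 to 1.15, adjusted p = 0.0949) at week 10 and 0.81 (0.31 to 1.31, adjusted p = 0.0176) at week 12. It ranked 72, 67, 77 and 71 of 237. The third normal library was the highest of its group at weeks 6, 8 and 10, and without it the difference passed the test at each of these weeks, with log2 fold changes of 1.00, 1.05 and 0.71. In same-numbered libraries of a week, miR-342 was higher in the tumor in 12 of 12, week 10 included, and so was miR-375. The share of tested miRNAs with 12 of 12 was not counted, and the labels give no pairing. Tumors above normal glands without overlap within every week, which gives 12 of 12 by itself, were seen for 24.1% of the tested miRNAs. With the replicate number as a block the week 8 difference was 0.81 (adjusted p = 0.0261, edgeR), while weeks 6 and 10 stayed short of the threshold (adjusted p = 0.0681 and 0.0519). The week 12 call was lost without the first normal library (0.72, adjusted p = 0.0530, edgeR) or the first tumor library (0.62, adjusted p = 0.0992).

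Over all weeks together, a fit of the 24 libraries gave an adjusted p of 1.36e-08 for miR-375 and 1.61e-04 for miR-342 (edgeR), with 95% intervals of 1.85 to 2.77 and 0.41 to 1.01 on the log2 scale. In this fit 85.7% of the tested miRNAs were called and 38.8% were called higher, so that a call alone says little about either miRNA. miR-375 ranked 12 and miR-342 ranked 72 of 237 by the size of their increase.

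**Figure D2:**
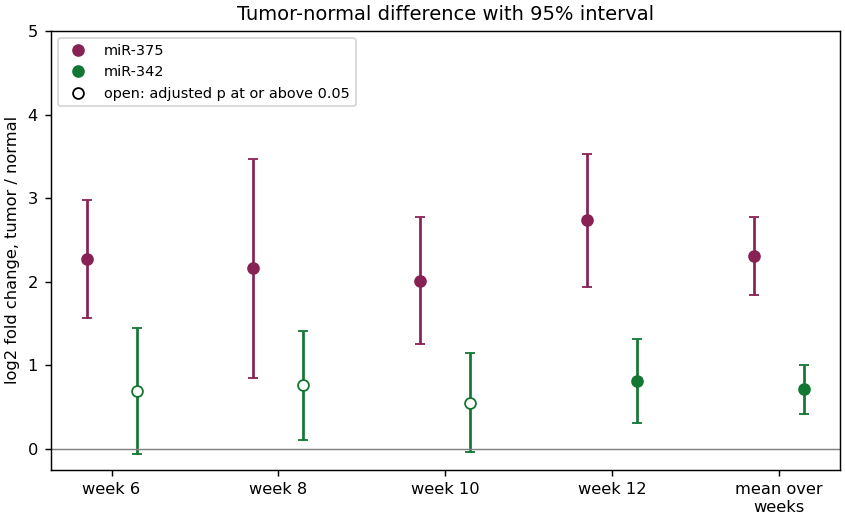
Log2 fold change (tumor over normal) of miR-375 and miR-342 at each week and as the mean over weeks, with 95% intervals. Filled points passed the adjusted p threshold of 0.05 in edgeR's quasi-likelihood test. miR-375 lies between 2.01 and 2.73 and miR-342 between 0.55 and 0.81.

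The difference itself was not seen to vary with stage. The test of whether any week's tumor-normal difference departed from the others gave an adjusted p of 0.971 for both miRNAs (edgeR, unadjusted p = 0.652 for miR-375 and 0.915 for miR-342). That test called 0 of the 237 miRNAs in edgeR and in DESeq2, and 9 of them (3.8%) had an unadjusted p under 0.05 in edgeR. From week 6 to week 12 the log2 difference of miR-375 moved by 0.49 (95% interval -0.77 to 1.75), and that of miR-342 by 0.13 (-0.71 to 0.97), but by -0.14 without the third normal library of week 6. Both intervals are wide, and that of miR-375 holds a change of 1 log2 unit. This test called 0.422% of the tested miRNAs.

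Within a tissue, neither miRNA passed the test of a change between weeks. In normal glands the adjusted p over all weeks was 0.501 for miR-375 and 0.635 for miR-342 (edgeR), where 13.9% of the tested miRNAs were called. In tumors it was 0.963 and 0.880, and 0 miRNAs were called, with 39 at an unadjusted p under 0.05 in edgeR and 13 called by DESeq2. Week 12 minus week 6 in normal glands was -0.31 on the log2 scale for each (95% intervals -1.20 to 0.59 for miR-375 and -0.90 to 0.28 for miR-342, 21.1% of miRNAs called). In tumors it was 0.18 (-0.70 to 1.06) and -0.18 (-0.77 to 0.42), with 7.59% called. Ordered by mean level, the groups of miR-375 ran from normal week 12 through weeks 6, 8 and 10 to tumor week 6, then weeks 12, 8 and 10. Of these neighbors the normal glands of week 10 and the tumors of week 6 were the pair whose libraries did not overlap. For miR-342 the order was normal weeks 12, 6, 8 and 10 and then tumor weeks 12, 6, 10 and 8, and each pair of neighbors overlapped.

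The study classed each miRNA by how its signed linear fold change moved between consecutive weeks, against 0.4 SD around the mean. Here the mean and SD were taken over all miRNAs with counts, a set that the study does not state. By that rule both miRNAs were unchanged at each of the 3 steps. The SD over all miRNAs was 8.01, 4.92 and 12.4 fold units at these steps. The rule could therefore hardly class moves between folds as small as those of miR-342, and it does not show that they were stable. The fold of miR-375 went from 4.90 at week 6 to 4.46, 4.05 and 6.49 at weeks 8, 10 and 12, and that of miR-342 from 1.61 to 1.69, 1.46 and 1.70. The last step of miR-375 (2.44) counted as an increase at 0.3 SD, and also without the first normal replicates (2.27).

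The spread of the 2 miRNAs between mice varied with the week. The SD of log2 CPM of miR-375 at weeks 6, 8, 10 and 12 was 0.40, 0.45, 0.18 and 0.49 in normal glands and 0.26, 1.19, 0.60 and 0.13 in tumors, so that tumors were the more spread at weeks 8 and 10. That of miR-342 was 0.67, 0.51, 0.38 and 0.17 in normal glands and 0.04, 0.04, 0.34 and 0.18 in tumors, with a larger spread in normal glands at weeks 6 and 8. Counting error alone gives 0.152 in normal libraries and 0.0923 in tumors on average for miR-375, with its 42 to 206 and 121 to 454 counts per library, and 0.0499 and 0.0519 for miR-342. The miR-342 values of hyperplasia and adenoma/MIN were therefore no more spread than counting error. Whether the spread differed between tissues was not tested.

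Sequencing lane moved with the size of the miR-342 difference. In lane 1, miR-342 had a median of 254 CPM in the 6 normal libraries (176 to 351) and 554 CPM in the 6 tumor libraries (493 to 642), without overlap. In lane 2 the medians were 381 CPM (263 to 472) and 477 CPM (386 to 621), with overlap. With each lane fitted on its own, the mean log2 fold change over weeks was 1.11 in lane 1 and 0.32 in lane 2. These fits had no replicates at weeks 10 and 12 in lane 1 and at weeks 6 and 8 in lane 2. Their sizes alone are given. The difference between lanes was -0.75 (95% interval -1.25 to -0.26), with an edgeR p of 0.00498 and an adjusted p of 0.507 over all miRNAs. That test called 0 miRNAs in edgeR, and 20 had an unadjusted p under 0.05. Lane follows the replicate number (the first, and at weeks 6 and 8 also the second, replicates were on lane 1), so that lane and replicate number cannot be told apart. Lane 1 thus held more libraries of weeks 6 and 8 and lane 2 more of weeks 10 and 12. The lane medians therefore also weight the weeks unequally.

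miR-375 had close values in both lanes, with a log2 fold change of 2.18 in lane 1 and 2.01 in lane 2. Its difference between lanes was -0.03 (95% interval -1.08 to 1.02). Among the normal libraries, the summed level of 3 adipocyte miRNAs (miR-378, miR-193b and miR-365) had a median of 15952 CPM in lane 1 (7021 to 25146) and 7632 CPM in lane 2 (4662 to 12134). That of the muscle miRNAs miR-1, miR-133a, miR-133b and miR-206 had medians of 14667 CPM (159.6 to 89345) and 524 CPM (89.0 to 45433). The lanes overlapped in both sums, and the fibroblast miRNAs (medians of 14622 and 14435 CPM) and endothelial miR-126 (28940.3 and 28543 CPM) were close. miR-18a and miR-17, named below as most like miR-342, were higher in the normal libraries of lane 2, as miR-342 was. Their medians were 20.5 CPM in lane 1 and 45.8 CPM in lane 2 for miR-18a, and 171 and 230 CPM for miR-17. The summed leukocyte miRNAs went the other way, with medians of 3052 and 2402 CPM. The lanes overlapped in each of these. These differences between lanes and their part in the miR-342 result were not tested.

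**Figure D3:**
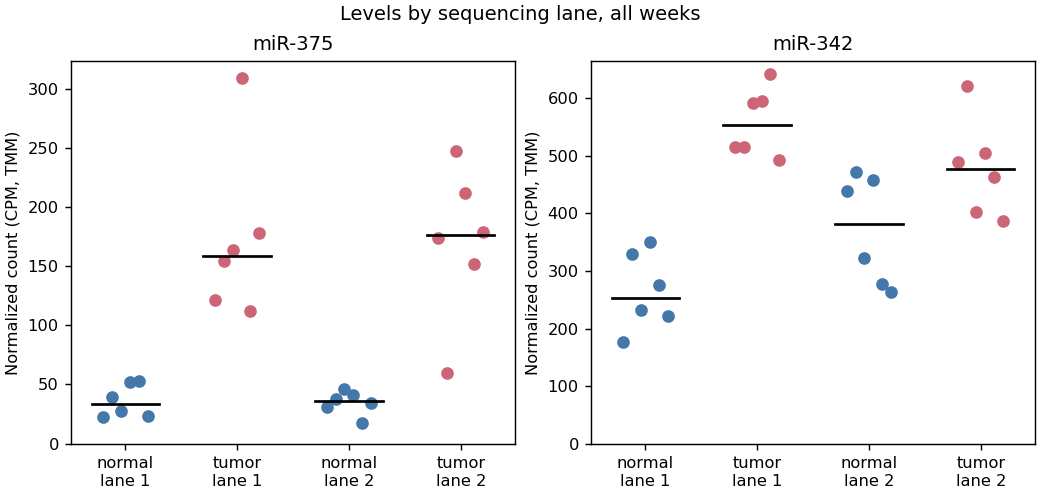
Normalized count (CPM, TMM) of miR-375 and miR-342 by tissue and sequencing lane over all weeks, 1 point per library, 6 libraries per column, with the median as a line. The medians of miR-342 are 254 and 554 CPM in lane 1 and 381 and 477 CPM in lane 2.

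Since depth and scaling act alike on all miRNAs of a library, ratios within a library were also compared, with exact two-sided permutation tests that exchanged tissue labels within weeks. The log2 ratio of miR-375 to miR-342 was -2.97, -3.06 and -3.82 in the normal libraries of week 6 and -2.09, -1.74 and -1.49 in hyperplasia. Over all weeks its median was -3.06 among normal libraries (-4.02 to -2.38) and -1.55 among tumors (-3.37 to -0.70). The tissues overlapped at weeks 8 and 10, through the third adenoma/MIN and the first early carcinoma library. On average the ratio was 1.5 higher in tumors on the log2 scale, or 2.83-fold (exact p = 8.75e-05, adjusted p = 1.31e-04 over the 3 ratios), and the weekly differences were 1.51, 1.10, 1.40 and 1.99. It was 1.06 higher within lane 1 and 1.72 higher within lane 2. miR-375 thus rose by more than miR-342 in the same libraries.

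miR-375 was next set against miRNAs of luminal epithelium. This list held the miR-200 family, whose members keep the epithelial state by repressing Zeb factors, the miR-183/96/182 cluster and miR-148a. All 9 were called higher at all 4 weeks, as were 18.6% of all tested miRNAs. Their median log2 fold changes were 1.92, 2.15, 2.0 and 2.22, beside -0.12, -0.09, -0.15 and -0.19 for all tested miRNAs. miR-148a went from 63991-148912 CPM in normal libraries to 255927-558418 CPM in tumors, and miR-182 from 7023-11139 CPM to 26365-51636 CPM. miR-200b rose by 2.54 and miR-183 by 2.19 on the log2 scale as the mean over weeks. Summed over the 9 miRNAs, normal libraries had 75086 to 161559 CPM and tumors 317749 to 653522 CPM, which did not overlap. Of single tested miRNAs, 18.6% had all 12 tumor libraries above all 12 normal libraries.

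Against the mean of these 9 miRNAs, the log2 ratio of miR-375 had a median of -5.00 among normal libraries (-6.0 to -4.17) and of -4.62 among tumors (-5.95 to -4.02). The average difference was 0.17, with an exact permutation p of 0.421 (n = 12 per tissue). The weekly differences were 0.39, -0.17, -0.06 and 0.55, beside a spread of 0.53 (SD) between replicates of a group. A change of miR-375 apart from that of the luminal list was therefore not detectable in these libraries.

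miR-342 was set against leukocyte miRNAs, since it is also known from lymphoid cells. The list held miR-142, found across blood cells, the lymphocyte miRNA miR-150, miR-155 of activated lymphocytes and macrophages, and the myeloid miR-223, which was listed at 0 in every library. A 0 in every library cannot tell absence from a miRNA left uncounted in the processing, so that miR-223 gives no reading. miR-142 was 1048 to 2056 CPM in normal and 964 to 1652 CPM in tumor libraries, and miR-155 was 6.61 to 25.9 and 10.9 to 22.2 CPM. Neither was called at any week. miR-150 fell at every week, with log2 fold changes of -0.77, -2.29, -2.66 and -2.58, and went from 616-1773 CPM in normal glands to 128-484 CPM in tumors. Summed over the list, normal libraries had 1681 to 3241 CPM and tumors 1198 to 1868 CPM.

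miR-342 was compared by its log2 ratio to the mean of the 3 leukocyte miRNAs with counts. Without overlap, this ratio was -0.51 to 0.99 across normal libraries and 1.36 to 2.15 across tumors. It was 1.40 higher in tumors, or 2.64-fold (exact p = 1.25e-05, the smallest these permutations can give, adjusted p = 3.75e-05). It was 1.78 higher within lane 1 and 1.04 higher within lane 2. The size depended on miR-150. Against miR-142 and miR-155 alone the difference was 0.70, or 1.62-fold (exact permutation p = 2.5e-05), a choice made after the values were seen. Since miR-142 and miR-155 were not called at any week, this difference largely restates that of miR-342 itself. The latter was 0.71 on the log2 scale as the mean over weeks, so that the ratio adds no separate result.

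**Figure D4:**
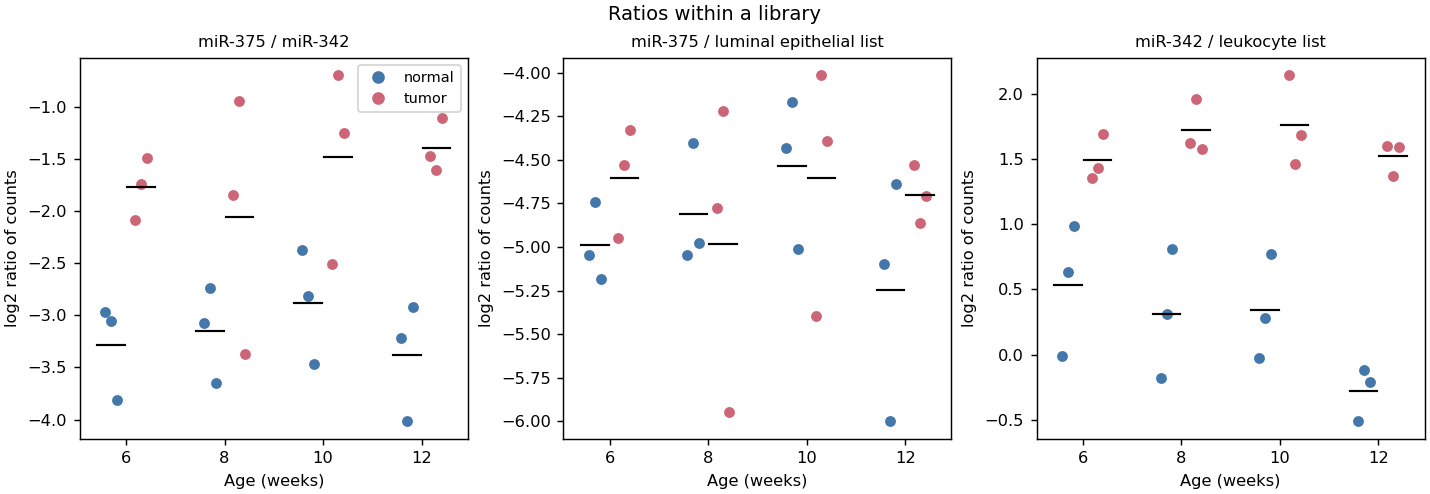
Log2 ratio of counts within a library against age in weeks, for miR-375 over miR-342, miR-375 over the mean of the luminal epithelial list and miR-342 over the mean of the leukocyte list. Points are libraries, normal in blue and tumor in red, and lines are group means. Tumors lie above normal glands at all 4 weeks for miR-342 over leukocyte miRNAs, while the tissues overlap at every week for miR-375 over luminal miRNAs.

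Other miRNAs linked with the estrogen receptor were called in both directions. Their list mixes miRNAs that repress the receptor, such as miR-22 and miR-18a, with others, so that no common direction applies to it. Of the 13 listed, 3 (miR-221, miR-222 and miR-18b) were at 0 in every library and 9 passed the filter. The study names miR-18b among the miRNAs that recur during progression, so that these zeros are no measure of absence. At weeks 6, 8, 10 and 12, 3, 1, 2 and 2 of the 9 were higher in tumor, and 1, 1, 1 and 2 were lower. Over all tested miRNAs 29.1%, 21.9%, 32.9% and 29.1% were called higher at these weeks and 29.5%, 13.5%, 27.4% and 21.5% lower. As the mean over weeks 3 were higher and 3 lower, beside 38.8% and 46.8% of all tested miRNAs, with a median log2 fold change of 0.09, and -0.15 for all tested miRNAs. miR-22, which represses the receptor itself, fell at each week, with log2 values of -0.98, -1.06, -1.20 and -1.44. Its level was 5621-10813 CPM in normal glands and 2600.2-4179.5 CPM in tumors. miR-191, which shares a primary transcript with miR-425, rose at all 4 weeks by 1.05, 0.99, 1.02 and 0.92, from 5103-10178 CPM in normal glands to 10857-17776 CPM in tumors.

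Among the other members with high levels, miR-26a passed the weekly test at week 12 only (log2 fold change -0.75, adjusted p = 0.0306, edgeR). Over all weeks together it was also lower (-0.55, adjusted p = 2.91e-04, edgeR). miR-21, a widely expressed miRNA that is often high in cancer, passed at no week, with values between -0.18 and 0.32. miR-18a, a member of the miR-17-92 cluster that represses the receptor, rose at weeks 6, 10 and 12, by 1.61, 2.03 and 2.49, and had 1.68 at week 8 (adjusted p = 0.0599, edgeR). The summed level of the list was 48273 to 80411 CPM in normal and 47563 to 61715 CPM in tumor libraries, which overlap.

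**Figure D5:**
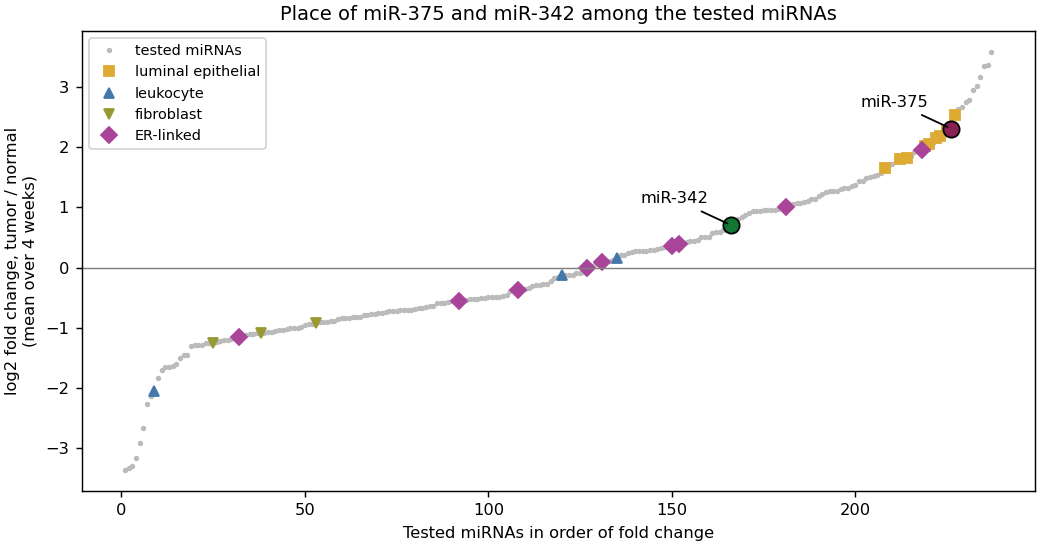
Log2 fold change (tumor over normal, mean over 4 weeks) of the 237 tested miRNAs in order of size, with the luminal epithelial, leukocyte, fibroblast and ER-linked lists marked. miR-375 (2.31) lies among the luminal epithelial miRNAs, and miR-342 (0.71) below them, while the ER-linked list runs from -1.15 to 1.95.

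miRNAs of other cells moved in either direction. The 3 fibroblast miRNAs (miR-199a, miR-199b and miR-214) and the endothelial miR-126 fell at every week. Their means over weeks were -1.09, -1.25, -0.91 and -1.25 on the log2 scale. miR-143 and miR-145, which mark smooth muscle and myoepithelium, had means of -1.22 and -1.61 and were lower at every week, while the basal epithelial miR-205 was not called at any week (mean 0.29). Of the 3 muscle miRNAs tested, 0, 1, 0 and 3 fell at weeks 6, 8, 10 and 12, where 29.5%, 13.5%, 27.4% and 21.5% of all tested miRNAs were called lower. Of the 3 adipocyte miRNAs, miR-193b, which is also on the ER-linked list, rose at week 6 and miR-378 fell at weeks 10 and 12. Of the pancreatic islet miRNAs, which were listed because miR-375 is abundant there, miR-7a rose at every week (1.23, 1.73, 1.32 and 1.10), and miR-7b, miR-216a and miR-217 had 1, 5 and 2 counts in all libraries together. The part of cell makeup in the miR-375 and miR-342 results was not tested.

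The miRNAs whose levels ran most like those of miR-375 over the 24 libraries were miR-200b (Spearman's rho 0.907), miR-92b (0.900), miR-187 (0.898), miR-484 (0.887) and miR-92a (0.885). With the group means removed, the most alike were miR-92b (Pearson's r 0.711), miR-484 (0.703), miR-130b (0.668), miR-425 (0.633) and miR-674 (0.627). For miR-342 they were miR-18a (rho 0.923), miR-17 (0.904), miR-183 (0.880), miR-96 (0.878) and miR-181b (0.871). After removal of group means they were miR-18a (r 0.899), miR-17 (0.864), miR-20a (0.860), miR-183 (0.856) and miR-93 (0.851). Members of the miR-17-92 cluster and its relatives thus headed the miR-342 list by either measure. These values describe 24 libraries that share lanes, tissues and scaling. Between miR-375 and miR-342 rho was 0.483 over the 12 normal and -0.462 over the 12 tumor libraries.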

How the data were processed

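Per the labels and the study's methods, small RNA libraries (Illumina TruSeq, version 1) were made from miRNeasy RNA of snap-frozen tissue. The authors trimmed the reads, aligned those of mature miRNA length with Bowtie, matched them to miRBase and deposited the resulting read counts per miRNA, not normalized. The labels name mm9 and the methods mm10. Groups, weeks, replicate numbers and lanes are from the labels. The counts were tested with edgeR 4.0.16 (R 4.3.3) after filterByExpr over the 8 groups and TMM scaling, per week or with 1 coefficient per group over 24 libraries. Intervals are 95%. The SE is the log2 fold change divided by the root of F. Ratios used log2(count + 0.5), with exact tests over 160000 arrangements (Python 3.11.15, numpy 2.4.6). Spread and correlations used log2 CPM with a prior count of 2.

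A floor of 3 counts limits detection at these depths, and a 0 in every library is not read as absence. The intervals are from the edgeR fits and include the spread between mice. Counting errors given beside them leave that spread out. Same-numbered tumor and normal libraries deviated from their group means together at weeks 6, 8 and 10, with correlations over 0.1 in 3 of 3 pairs each (0.196 to 0.816), and at week 12 in 1 of 3. The labels give the numbers and no pairing. The edgeR and DESeq2 tests were tried on simulated counts, with the same spread setting for every miRNA and no lane or replicate-number effect. The outcome is not given here. The members and lists were chosen with earlier results of these data known. Named miRNAs are the members, the 5 most like each, the 4 most counted of each list, and ER-linked miRNAs called at all 4 weeks. miR-221, miR-222 and miR-18b, listed at 0, are named outside this rule. Alternatives were DESeq2 1.42.0 and its size factors, library sizes only, TMM without the 5 most counted miRNAs, the classic exact test of edgeR, other filters, a single fit, lane, the replicate number as a block, left-out replicates, and for the study's pattern rule 0.3 and 0.5 SD. Lane-only fits, the test of a lane difference and the leukocyte list without miR-150 were chosen after the data were seen.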

Additional observations from a re-analysis of the deposited data

How the results depend on the processing

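The miR-375 difference stayed above 0 and past the threshold under each alternative at weeks 6, 10 and 12 and over all weeks, with log2 fold changes of 2.09 to 2.49, 1.78 to 2.28, 2.49 to 3.04 and 1.99 to 2.38. At week 8 it ranged from 1.52 to 2.64 with replicates left out and lost its call in 3 of the 6. miR-342 stayed higher in tumor under each alternative at each week and over all weeks. Its weekly call was gained at week 6 with the Wald test of DESeq2 (0.73, adjusted p = 0.0399) and a single fit of all libraries (0.69, adjusted p = 0.0474, edgeR), and at week 8 with a single fit (0.78), lane as a covariate (0.80) and the replicate block (0.81). It was lost at week 12 with the classic exact test (0.81, adjusted p = 0.0729, edgeR). The call over all weeks was lost in lane 2 alone (0.32), where weeks 6 and 8 had no replicates. With replicates left out it ranged from 0.40 to 1.00, 0.57 to 1.05, 0.35 to 0.71 and 0.62 to 0.90 at weeks 6, 8, 10 and 12. The causes were not tested. Library sizes without TMM moved the median of all tested miRNAs by -0.14, -0.13 and 0.18 at weeks 6, 8 and 12, and other scalings by less than 0.1.

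From week 6 to week 12, the miR-342 difference ranged from -0.14 to 0.42 with replicates left out. Within normal glands the change ranged from -0.57 to 0.14 for miR-375, positive without the second library of week 12, and from -0.60 to 0.0084 for miR-342, positive without the third library of week 6. In lane 1 alone the log2 ratio of miR-375 to the luminal list differed between tumor and normal by -0.0038. The miR-375 step from week 10 to 12 was 2.44 at 0.3 SD, now called an increase, and 2.08 to 4.97 with replicates left out. The other ratios kept their calls under each alternative.

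The correlations of same-numbered libraries ran from 0.0312 to 0.816 and were over 0.1 in 10 of 12 pairs, and 17 of 24 libraries correlated best with their own number. At week 10, differently numbered libraries ran from -0.799 to 0.590. Same-numbered libraries of a week also shared a lane, and its part in these correlations was not tested. Since 2 pairs of week 12 fell short of 0.1, the tests over all weeks are given without pairs. The replicate block gave 131 calls at week 8, where the test without it gave 84, 2 for the week 12 minus week 6 difference, and changed no other call of the members.

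Counts of calls moved as follows. In tumors over all weeks 0 became 3 with DESeq2 size factors, 3 with at least 10 counts in every library and 13 with DESeq2. For the week 12 minus week 6 difference 1 became 0 with library sizes only, 2 with at least 10 counts, 3 with DESeq2 and 2 with lane as a covariate. Tumors of week 12 against 6 went from 18 to 10 without a filter and 30 with DESeq2. With at least 10 counts, normal glands went from 33 to 18 over all weeks and from 50 to 28 for week 12 against 6. With replicates left out, counts ranged from 78 to 150, from 50 to 81 and from 74 to 120 at weeks 6, 8 and 12, 0 to 2 for the difference over weeks and from week 6 to 12, 8 to 26 in normal glands and 0 to 2 in tumors over all weeks, and 32 to 76 and 0 to 19 for week 12 against 6.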
